A study of Mus musculus with 10 samples.

Results

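Lumbar spinal cord of mice carrying a mutant human TARDBP gene was compared with lumbar cord of nontransgenic mice. Genotype labels chose the libraries, and 8 of the 10 in the study entered the comparison. The M337V group (n = 5, animals 1, 2, 3, 7 and 9) carried human TARDBP with the M337V substitution, linked to amyotrophic lateral sclerosis (ALS), on a bacterial artificial chromosome. Per the labels, a single copy had been placed at the Rosa26 locus of IDG26.10-3 embryonic stem cells by PhiC31-mediated exchange, and the resulting line was backcrossed to C57BL/6J for at least 3 generations. The nontransgenic group (NTg, n = 3, animals 4, 5 and 6) is labelled C57BL/6, and littermates served as controls. All animals of both groups were female and 3 months old, and nothing in the labels gives a litter, a dissection day or a sequencing batch. The library names number NTg animals 4, 5 and 6 as 2, 3 and 4, and M337V animals 7 and 9 as 5 and 7. M337V animals 1, 2 and 3 are numbered 10, 11 and 12. Library number thus runs with group and the effects of each cannot be told apart. What the numbers stand for is not given. The other 2 libraries came from mice with the unmutated human gene (WT). They entered the gene filter, the scaling and the estimate of spread, but no comparison. Values are given in the order M337V 1, 2, 3, 7 and 9, then NTg 4, 5 and 6.

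TDP-43, the product of TARDBP, is a nuclear RNA-binding protein that controls splicing, mRNA stability and transport, and limits the amount of its own mRNA. In most ALS patients it leaves the nucleus of motor neurons and glia and forms cytoplasmic aggregates. The lumbar cord holds the motor neurons of the hind limbs, sensory and inhibitory interneurons, and thick myelinated tracts made by oligodendrocytes, so myelin transcripts are among its most abundant messages.

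Human TARDBP was counted under an identifier of its own. Its level was 116, 118, 125, 141 and 124 CPM (counts scaled to the size of the library after TMM correction) in M337V, and 118, 0.0493 and 0.186 CPM in NTg. NTg 5 and 6 held 1 and 4 counts, but the library labelled NTg 4 held 2415, within the M337V range and against its label. The deposited label was kept, and results are given with and without that library. With it, human TARDBP did not pass the test (log2 difference 1.66 ± 1.02, SE, adjusted p = 0.341); without it the log2 difference was 9.96 (adjusted p = 8.14e-10), a fitted value against 5 counts in all. Mouse Tardbp stood at 250, 272, 280, 228 and 253 CPM in M337V and 237, 249 and 246 CPM in NTg, with overlapping groups and a log2 difference of 0.07 ± 0.06 (SE, adjusted p = 0.518).

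Library totals ran from 18724888 to 21041474 counts. On the first principal component of the 8 libraries (34.08% of the variance) NTg 4, 5 and 6 lay at 23.2, 19.8 and 30.6, M337V 1 to 3 between -23.3 and -18.3, M337V 9 at -10.03 and M337V 7 at 0.096. NTg 4 thus lay beside its labelled group on this component. On the second (18.96%) it lay at -18.4, beside M337V 7 and 9 at -20.5 and -17.9, while NTg 5 and 6 lay at 12.2 and 18.8. Defining markers of oligodendrocytes, astrocytes, microglia, neurons and motor neurons were present in all 8 libraries (Mnx1, the lowest, at 1.94 to 2.91 CPM). Genes of peripheral nerve and caudal level varied within groups: the summed level of 18 Schwann cell genes ran from 520 CPM in M337V 1 to 2606 CPM in NTg 4, and Hoxc10, a lumbar-level Hox gene, stood at 9.93 CPM in M337V 3 against 44.9 to 76.6 CPM elsewhere. In bulk tissue, fewer cells of a type and less RNA per cell cannot be told apart.

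Across 15191 genes tested with edgeR, 406 genes were higher in M337V cord (2.67%) and 245 were lower (1.61%), with 0.05 as the threshold of the adjusted p. The list counts below stand beside these shares. The changes were mostly small: the median absolute log2 difference of the 651 called genes was 0.32, 537 changed by less than 1.5-fold, and of the 79 that changed by more than 2-fold 77 were lower. Genes of myelin, microglia, neuronal adhesion and RNA binding were among the higher ones. Many of the decreases of more than 2-fold lay in lists of blood-forming, dividing and muscle cell genes. Most of these lists were drawn up after the values were seen. The smaller decreases had a median GC content of 56.63% and included neuronal genes. All 5 M337V libraries lay above all 3 NTg libraries for 1445 genes (9.51%) and below them for 1308 (8.61%), and 636 of the 651 called genes were among these. Scaled by library size alone, 251 genes were called higher and 393 lower, so the larger count changed direction with the scaling.

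**Figure D1:**
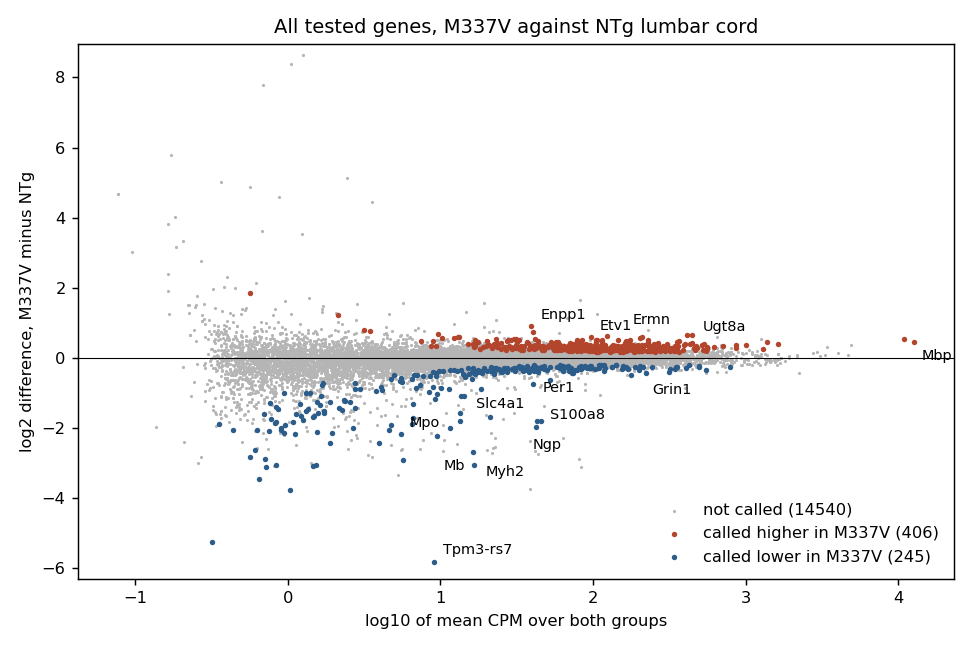
The log2 difference between M337V and NTg (vertical axis) is plotted against the log10 of the mean CPM (horizontal axis) for each of the 15191 genes tested, with the 406 called higher in red and the 245 called lower in blue. Most called genes lie within 1 log2 unit of 0, the abundant myelin gene Mbp stands at the far right above 0, and nearly all large called differences are decreases of genes at low levels.

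The number of calls rested on single libraries. Of the 651 genes, 2 were called in all 8 fits that each left out 1 compared library, 48 in 7 of them and 22 in 0. Without NTg 6 only 2 genes passed (Etv1 and Tpm3-rs7), although 2368 had an unadjusted p under 0.05; without M337V 2 there were 53, without M337V 3 161 and without NTg 5 280. Without the library labelled NTg 4, 142 genes were called higher (0.938%) and 55 lower (0.363%) of 15132 tested. Of the 141 higher genes other than human TARDBP in that fit, NTg 4 lay below all 5 M337V libraries for 133 (94.3%). Of the 55 lower genes, NTg 4 lay above them all for 38 (69.1%) and inside the M337V range for 15. For these lower genes the median log2 difference of M337V was -0.344 from NTg 4 and -1.311 from NTg 5 and 6. For the higher genes it was 0.292 and 0.383. Both sets were picked by their difference from NTg 5 and 6. The values from those libraries are therefore favoured by the choice, and each pair does not hold like measures. The share of all genes tested for which NTg 4 lies beyond all M337V libraries was not computed. Without M337V 1, 2 and 3, which leaves 2 M337V libraries, 3 genes passed (1 higher and 2 lower), and without M337V 7 and 9, which leaves 3, 1146; these fits differ in size. The median log2 difference from NTg of the genes called higher was 0.31 in M337V 1 to 3 and 0.26 in M337V 7 and 9, and of those called lower -0.45 and -0.35. Among the 245 lower genes, M337V 7 and 9 both exceeded M337V 1 to 3 for 94 (38.4%), against 14.9% of all genes tested.

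**Figure D2:**
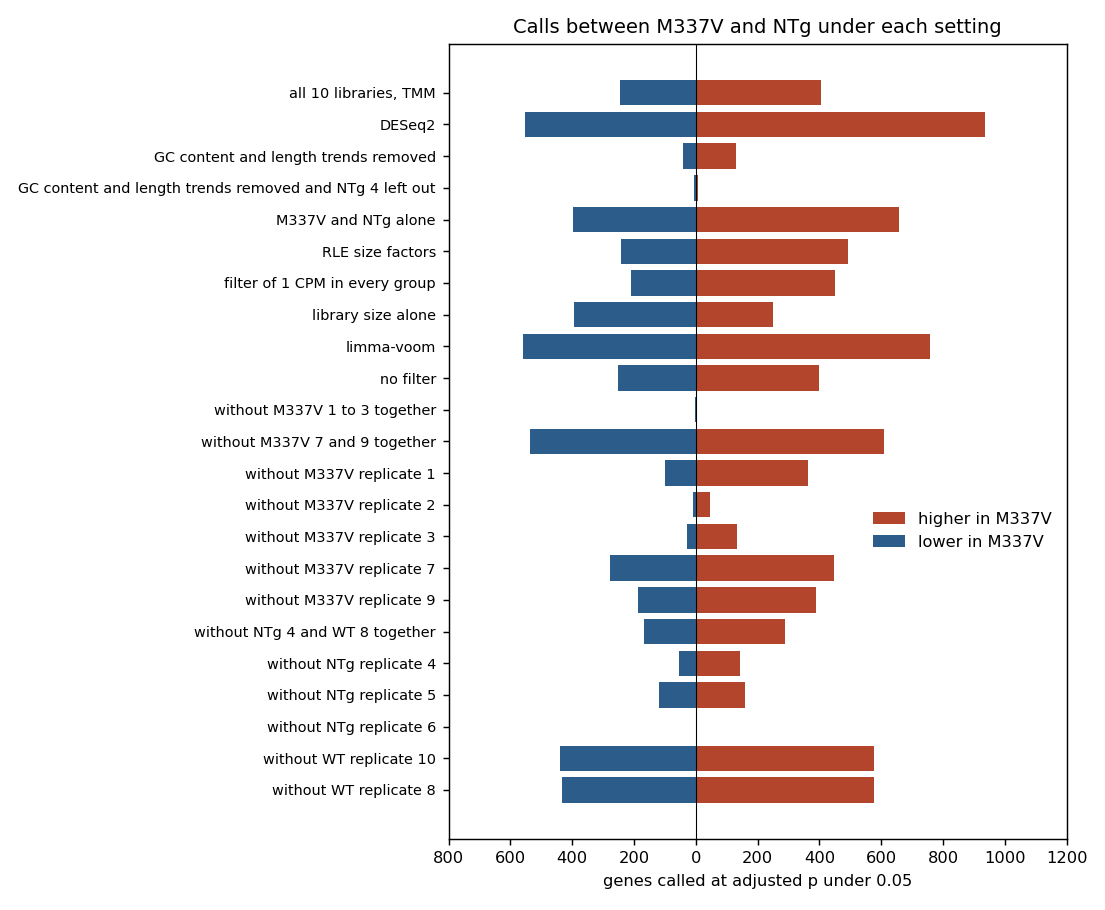
Bars give the number of genes called higher (red, to the right) and lower (blue, to the left) in M337V under each setting of the analysis. The bars all but vanish without NTg 6 and without M337V 1 to 3, and shrink to 13 genes in all when trends over GC content and length are removed and NTg 4 is left out.

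Direction varied with the base composition of the transcripts. Genes called higher had a median GC content of 42.04% and a median transcript length of 4313 bases, those called lower 55.25% and 3360 bases, and all genes tested 50.27% and 3175 bases. In the quintile of genes with the lowest GC content the median log2 difference was 0.125, with 9.27% called higher and 0.627% lower; in the highest quintile it was -0.115, with 0.132% higher and 3.56% lower. Measured in each library as the median deviation of the lowest quintile minus that of the highest, this tilt was -0.005, 0.132, 0.195, 0.035 and 0.082 log2 units in M337V and -0.141, -0.09 and -0.207 in NTg, so the groups did not overlap. After a smooth curve over GC content and transcript length had been subtracted from every library, 130 genes were called higher and 40 lower, and 132 of the 651 kept their call. This alternative is named the trend-removed fit; what produces the tilt was not tested.

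Genes of central myelin were higher in M337V cord. Of 26 structural myelin genes tested, 9 rose and 0 fell, 25 had a positive log2 difference, and the median was 0.25 against -0.01 over all genes tested. Mbp, which compacts the myelin membrane, stood at 15133, 16556, 14578, 13814 and 13132 CPM in M337V and 10700, 11420 and 10046 CPM in NTg (log2 0.45 ± 0.08, SE, adjusted p = 0.0225). Every M337V library exceeded every NTg library, and M337V 9 was the lowest of its group. Ermn encodes ermin, a cytoskeletal protein of the outer oligodendrocyte process. It held 453, 586, 475, 505 and 490 CPM in M337V and 322, 358 and 280 CPM in NTg (log2 0.65 ± 0.09, adjusted p = 0.0122), again without overlap. Tspan2, a tetraspanin of early myelin, and Anln, a septin-binding scaffold, rose by log2 0.48 ± 0.07 (adjusted p = 0.0122) and 0.50 ± 0.07 (adjusted p = 0.0118). Mog, a surface antigen of the outermost lamella, rose by 0.39 ± 0.09 (adjusted p = 0.0397). Mag and Cnp did not pass, at 0.16 (adjusted p = 0.14) and 0.22 (adjusted p = 0.091). The count of 9 was 7 in the trend-removed fit, 4 without M337V 2 and 0 without NTg 6; Ermn, Tspan2 and Anln each passed in 7 of the 8 fits that left out 1 compared library, and all 3 passed without NTg 4.

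The 250 bases before the RefSeq start of Ermn are shown because it had the largest log2 difference of the structural genes named. They lie at chr2:58052865-58053114 on the minus strand of GRCm38.p6 and are written 5′ to 3′, with a match to the SOX-type motif ACAAAG or ACAATG (searched on both strands) in capitals:
Ermn: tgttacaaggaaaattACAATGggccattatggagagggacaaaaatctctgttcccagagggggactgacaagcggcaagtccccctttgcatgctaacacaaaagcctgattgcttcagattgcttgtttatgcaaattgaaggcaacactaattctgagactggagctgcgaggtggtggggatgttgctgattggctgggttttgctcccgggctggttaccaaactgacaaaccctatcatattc
One or the other of these letters occurs in 25.24% of the 32851 RefSeq windows of the same length, so a match is common, and the windows of Ugt8a and Tspan2, searched as well, hold 0. It is a description of the letters and not of a bound site.

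Lipid genes of myelin moved the same way. Of 20 tested, 10 rose and 0 fell, with a median log2 difference of 0.29; the list also holds 2 genes whose products are not enzymes, and 1 of its members is in the structural list too. Ugt8a, which makes galactosylceramide, the main glycolipid of myelin, stood at 515, 608, 569, 544 and 497 CPM in M337V and 408, 350 and 279 CPM in NTg (log2 0.66 ± 0.11, SE, adjusted p = 0.0182). The 2 groups did not overlap, and NTg 4 was the highest of its group. Enpp2, or autotaxin, which releases lysophosphatidic acid, rose by 0.35 ± 0.06 (adjusted p = 0.0192), and Far1, which makes the fatty alcohols of plasmalogens, by 0.33 ± 0.06 (adjusted p = 0.0235). Of 25 cholesterol synthesis genes 5 rose and 0 fell, with a median of 0.09. Among them were Cyp51, lanosterol demethylase (log2 0.35 ± 0.06, adjusted p = 0.0218), and Msmo1, the sterol methyl oxidase (0.39 ± 0.09, adjusted p = 0.0425). The lipid count was 3 in the trend-removed fit; among the leave-out fits it was 6 with M337V 1 omitted, 5 with M337V 3 or NTg 4 omitted, 3 with NTg 5, 1 with M337V 2 and 0 with NTg 6. The cholesterol count was 1 in the trend-removed fit, 3 when M337V 1 or 7 was omitted, 1 when any of M337V 2, M337V 3, NTg 4 and NTg 5 was, and 0 when NTg 6 was.

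Transcription factors of the oligodendrocyte lineage rose in 4 of 16 cases and fell in 0. Etv1, an ETS-family factor, stood at 113, 126, 121, 113 and 109 CPM in M337V and 82.0, 76.4 and 73.3 CPM in NTg. Its log2 difference was 0.59 ± 0.06 (SE, adjusted p = 0.00253), the groups were clearly apart, and it passed in all 8 fits that left out 1 compared library. St18, a zinc-finger factor of maturing oligodendrocytes, rose by 0.43 ± 0.07 (adjusted p = 0.0135), Nkx2-2, a homeodomain factor of the lineage, by 0.52 ± 0.13 (adjusted p = 0.0485), and Zeb2, which permits myelination, by 0.36 ± 0.09 (adjusted p = 0.0446). In the trend-removed fit 6 of the 16 rose. Without NTg 6 the count was 1, and it was 2 without M337V 1, 2, 3 or 7 or NTg 5. Of 16 precursor genes 1 rose, Vcan, a matrix proteoglycan (0.34 ± 0.08, adjusted p = 0.0464), and it passed in 1 of the 8 leave-out fits and not in the trend-removed fit.

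**Figure D3:**
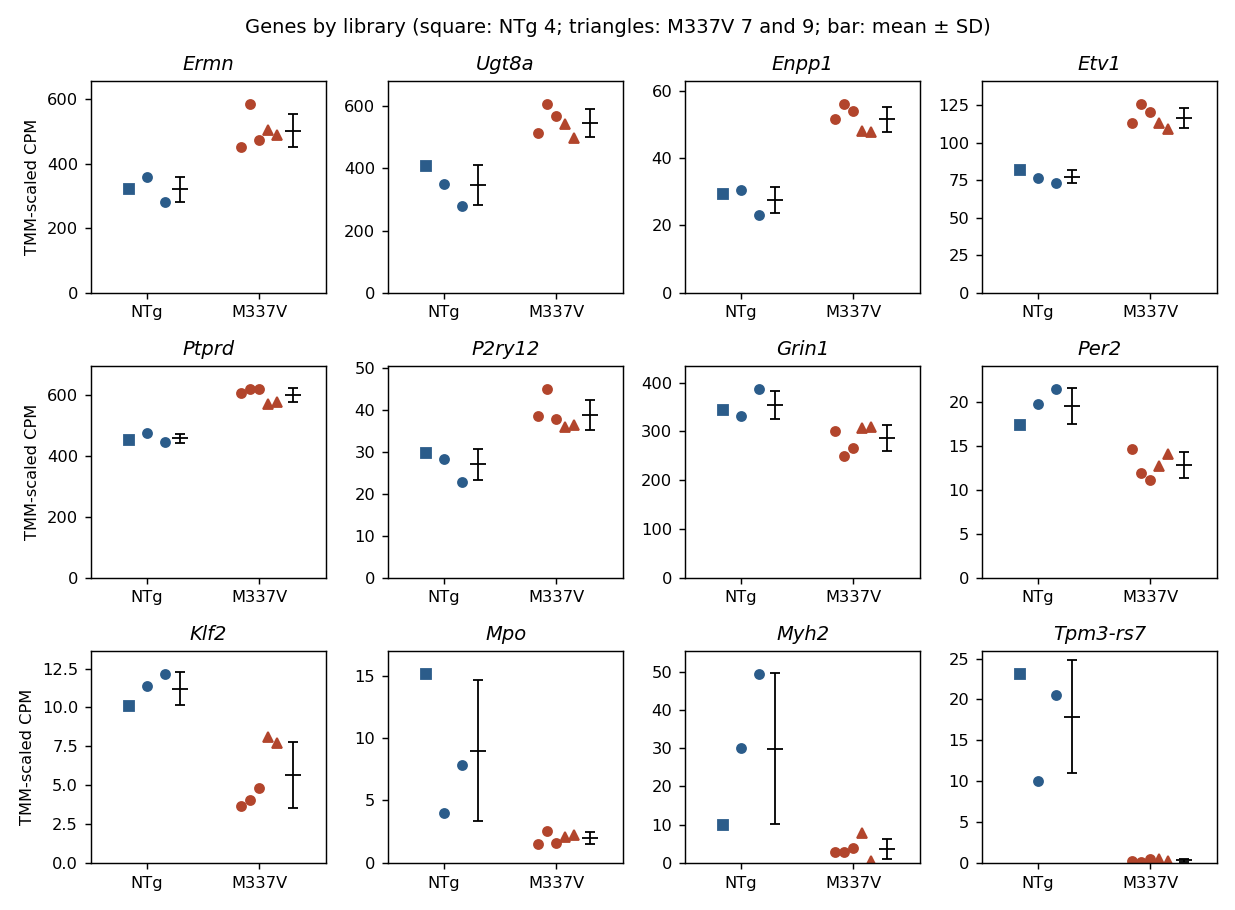
TMM-scaled CPM of 12 genes in the 3 NTg (blue) and 5 M337V (red) libraries, with NTg 4 as a square, M337V 7 and 9 as triangles, and black bars for the mean and SD. Ermn, Ugt8a, Enpp1, Etv1, Ptprd and P2ry12 lie higher in every M337V library, Grin1, Per2, Klf2, Mpo, Myh2 and Tpm3-rs7 lower, and the NTg libraries spread widely for Mpo and Myh2.

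Outside the myelin lists, Enpp1, a membrane enzyme that makes pyrophosphate from extracellular ATP, showed the largest increase among the called genes above 5 CPM whose groups did not overlap. It held 51.7, 56.1, 54.0, 48.1 and 47.7 CPM in M337V and 29.3, 30.3 and 23.1 CPM in NTg (log2 0.90 ± 0.13, SE, adjusted p = 0.0122). All 5 M337V libraries were more than 1.5-fold above the highest NTg library, and the log2 difference was 0.88 in the trend-removed fit. Enpp1 and Enpp2 were the 2 of 6 family members called; 1 was called with M337V 2 omitted and 0 with NTg 6. Prrg1, a vitamin K-dependent membrane protein, rose by 0.73 ± 0.13 (adjusted p = 0.0224) and Dbndd2, a casein kinase inhibitor, by 0.62 ± 0.14 (adjusted p = 0.038); for Dbndd2 M337V 7 and 9 (119 and 120 CPM) lay well below M337V 1 to 3 (168 to 174 CPM). Gpm6b, a proteolipid of neurons and glia, rose by 0.40 ± 0.06 (adjusted p = 0.0122). Sypl, a vesicle protein related to synaptophysin, rose by 0.56 ± 0.08 (adjusted p = 0.0122). Enpp1, Gpm6b and Sypl passed without NTg 4 and in 7 of the 8 leave-out fits; Dbndd2 passed in 2.

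Homeostatic microglial genes were higher in 5 of 20 cases and lower in 0, with a median log2 difference of 0.27. P2ry12, the purinergic receptor by which resting microglia sense injury, stood at 38.6, 45.1, 37.9, 35.9 and 36.5 CPM in M337V and 29.8, 28.4 and 22.96 CPM in NTg (log2 0.52 ± 0.09, SE, adjusted p = 0.0223). The groups did not overlap, and NTg 6 was lowest. Ly86, which pairs with a Toll-like receptor relative, rose by 0.56 ± 0.10 (adjusted p = 0.0218), Gpr34, a lysophosphatidylserine receptor, by 0.60 ± 0.14 (adjusted p = 0.041), and Ctss, a lysosomal protease, by 0.39 ± 0.08 (adjusted p = 0.0302). Of 19 complement and disease-associated microglial genes 0 passed in either direction; C1qc, a subunit of complement C1q, stood at 0.23 ± 0.08 (adjusted p = 0.101). Of 22 astrocyte genes only S100b, which oligodendrocytes also express, rose (0.37 ± 0.08, adjusted p = 0.0335); it passed in 4 of the 8 leave-out fits and not in the trend-removed fit. Gfap, the intermediate filament of astrocytes, stood at 961 to 1992 CPM in M337V and 984 to 1103 CPM in NTg (log2 0.54 ± 0.20, adjusted p = 0.119). The microglial count was 3 in the trend-removed fit and with M337V 1 omitted, 2 with M337V 3 or NTg 4 omitted, and 0 with M337V 2 or NTg 6.

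RNA-binding proteins close to TDP-43 did not pass: of 17 TDP-43, FET and hnRNP genes 0 were called either way, with a median log2 difference of 0.07. Among 34 splicing regulators 4 rose and 1 fell, beside 2.67% and 1.61% of all genes tested. Qk, or quaking, which binds and stabilises myelin mRNAs, stood at 1495, 1666, 1656, 1640 and 1485 CPM in M337V and 1255, 1162 and 1096 CPM in NTg (log2 0.44 ± 0.06, SE, adjusted p = 0.0122). Its groups did not overlap, and it passed in 7 of the 8 leave-out fits and in the trend-removed fit (0.32, adjusted p = 0.0257). Mbnl1 and Mbnl2, muscleblind factors that control developmental splicing, rose by 0.24 ± 0.05 (adjusted p = 0.0382) and 0.29 ± 0.06 (adjusted p = 0.0335), and Elavl2, a neuronal RNA-stabilising protein, by 0.36 ± 0.08 (adjusted p = 0.038). Their relative Mbnl3, which is expressed in precursor cells, fell from 1.01 CPM in NTg to 0.239 CPM in M337V on average (log2 -2.05 ± 0.47, adjusted p = 0.038), and passed in 3 of the 8 leave-out fits. Of 30 stress granule genes 3 rose: Tial1, an RNA-binding granule nucleator (0.32 ± 0.07, adjusted p = 0.029), Fmr1, the fragile X translational regulator (0.24 ± 0.06, adjusted p = 0.0453), and Ythdf3, a reader of methylated adenosine (0.20 ± 0.05, adjusted p = 0.0438). In the trend-removed fit 0 of these 3 passed, and of the splicing regulators 2 rose and 1 fell. Without NTg 6, M337V 2, M337V 3 or NTg 5 the counts of higher genes were 0, 1, 1 and 1 for splicing regulators and 0 each for stress granules; without NTg 4 they were 1 and 2. None of 26 deadenylation and decay genes passed, at a median of -0.01.

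Few endosome and lysosome genes were called. Over all genes tested the shares were 2.67% higher and 1.61% lower, so little is read from counts this small. Of 26 genes of ESCRT and endosome sorting 3 rose: Vps37a, an ESCRT-I subunit (log2 0.30 ± 0.06, SE, adjusted p = 0.0283), Chmp2b, an ESCRT-III subunit mutated in a frontotemporal dementia (0.25 ± 0.06, adjusted p = 0.0483), and Snx5, a retromer-linked sorting nexin (0.22 ± 0.05, adjusted p = 0.048). Of 33 lysosomal genes 2 rose and 1 fell. Tmem106b, a lysosomal membrane protein and risk gene for frontotemporal dementia, rose by 0.25 ± 0.05 (adjusted p = 0.0285). Gaa, the acid glucosidase, stood at 276, 229, 236, 310 and 295 CPM in M337V and 368, 341 and 366 CPM in NTg, a log2 difference of -0.41 ± 0.09 (adjusted p = 0.0368). Every M337V library was below every NTg library, M337V 7 and 9 least so. In the trend-removed fit 0 members of either list passed. The ESCRT count was 1 when M337V 1 or NTg 4 was omitted, and 0 when any of M337V 2, M337V 3, NTg 5 and NTg 6 was. The lysosomal increases numbered 3 when NTg 5 or M337V 9 was omitted and 0 when any of M337V 2, M337V 3, NTg 4 and NTg 6 was. Of 30 ALS and frontotemporal dementia genes the 2 called, both higher, were Tmem106b and Chmp2b; 1 was called with M337V 1 or 7 omitted and 0 with M337V 2, M337V 3 or any NTg library omitted.

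A few members of the neuronal lists were called in each direction, beside 2.67% higher and 1.61% lower over all genes tested. In bulk tissue the cell type in which a listed gene changed cannot be told. Of 33 long genes of neuronal adhesion 5 rose and 0 fell, with a median of 0.04. Ptprd, a receptor phosphatase that organises synapses, stood at 609, 622, 620, 573 and 580 CPM in M337V and 455, 476 and 445 CPM in NTg (log2 0.39 ± 0.05, SE, adjusted p = 0.0118). Every M337V library held at least 573 CPM and every NTg library at most 476 CPM. Cadm2, a synaptic adhesion molecule (0.30 ± 0.04, adjusted p = 0.0118), Pcdh9, a protocadherin (0.31 ± 0.05, adjusted p = 0.0156), Nkain2, a sodium pump partner (0.45 ± 0.09, adjusted p = 0.0235), and Dlg2, a postsynaptic scaffold (0.21 ± 0.05, adjusted p = 0.0322), made up the rest. The count was 3 in the trend-removed fit and without M337V 2, and 0 without NTg 6. Of 24 genes of inhibitory transmission 2 rose, among them the GABA receptor subunit Gabrg1 (0.28 ± 0.06, adjusted p = 0.0288), and of 28 genes of the axonal cytoskeleton and transport 1, the kinesin motor Kif5b (0.35 ± 0.07, adjusted p = 0.0246). Of the inhibitory genes 0 passed in the trend-removed fit, where Gabrg1 stood at 0.03 (adjusted p = 0.851). Of these inhibitory genes 1 rose with NTg 4 or 5 omitted and 0 with M337V 2, M337V 3 or NTg 6, and Kif5b passed in 4 of the 8 leave-out fits.

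Of 25 glutamate receptor and scaffold genes 1 rose (Dlg2) and 2 fell, 14 lay above 0, and the median was 0.06. Over all genes tested 2.67% rose and 1.61% fell. Grin1, one of those that fell and the obligatory subunit of NMDA receptors, stood at 300.2, 250.1, 266, 306 and 309 CPM in M337V and 344, 331 and 387 CPM in NTg (log2 -0.31 ± 0.08, SE, adjusted p = 0.0482). Slc12a5, the neuronal chloride extruder KCC2, which was named for its abundance among the lower genes, stood at 484, 429, 458, 529 and 540 CPM against 628, 570 and 655 CPM (-0.34 ± 0.08, adjusted p = 0.0363). Neither gene's groups overlapped, and in both M337V 2 was lowest and M337V 7 and 9 lay nearest to NTg. Grin2d, another NMDA receptor subunit (-0.34 ± 0.09, adjusted p = 0.0494), Ncdn, the neurite protein neurochondrin (-0.27 ± 0.07, adjusted p = 0.0491), Rtn1, a neuronal reticulon (-0.22 ± 0.05, adjusted p = 0.0475), and Ache, acetylcholinesterase (-0.28 ± 0.05, adjusted p = 0.0271), were also called lower. Of 26 presynaptic release genes 0 passed, with 20 below 0; Syn1, which tethers synaptic vesicles, stood at -0.24 (adjusted p = 0.0723). None of these 6 genes called lower passed in the trend-removed fit (Grin1 -0.15, adjusted p = 0.253; Ache -0.16, adjusted p = 0.108), and none passed without NTg 4. Of 20 motor neuron and cholinergic genes 0 rose and 2 fell, Ache and Mmp9, the latter shared with the neutrophil list.

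Of 21 clock genes 2 rose and 2 fell, beside 2.67% and 1.61% of all genes tested. Per1 and Per2 encode the repressors that close the daily feedback loop, and Clock and Rora encode activators of it. Per2 stood at 14.6, 11.9, 11.1, 12.7 and 14.1 CPM in M337V and 17.3, 19.8 and 21.5 CPM in NTg (log2 -0.60 ± 0.10, SE, adjusted p = 0.0189). Per1 stood at 26.9, 22.7, 26.9, 35.1 and 39.6 CPM against 39.1, 53.7 and 60.6 CPM (-0.76 ± 0.18, adjusted p = 0.0412). Per2 separated the groups, while for Per1 M337V 9 lay just above NTg 4. Clock (0.24 ± 0.04, adjusted p = 0.0225) and Rora (0.24 ± 0.04, adjusted p = 0.0199) rose, and 17 of the 21 clock genes did not pass. In the trend-removed fit Per2 alone of the 4 remained called (-0.47, adjusted p = 0.0472). Nr3c1, the glucocorticoid receptor, rose by 0.22 ± 0.05 (adjusted p = 0.0319), while Ddit4, an mTOR inhibitor induced by glucocorticoids and stress, stood at 37.5, 37.4, 36.9, 46.5 and 47.8 CPM against 52.1, 73.3 and 66.4 CPM (-0.63 ± 0.12, adjusted p = 0.024), without overlap. Of 25 immediate early genes 2 fell, and 19 lay below 0: Dusp1, a MAP kinase phosphatase (-0.47 ± 0.10, adjusted p = 0.0347), and Klf2, a shear-responsive factor of endothelium (-0.99 ± 0.24, adjusted p = 0.0438). The times of dissection are not given in the labels used here. Without NTg 6 or M337V 2 none of the genes of these lists passed. Of the 4 clock genes 2 passed with NTg 5 omitted and 3 with M337V 1 or 3, and of the immediate early genes 0 passed with M337V 1, M337V 3 or NTg 5 omitted and 5 with M337V 7. Without NTg 4, Per1, Per2, Ddit4, Dusp1, Nr3c1 and Rora passed and Clock and Klf2 did not.

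The 250 bases before the Per1 start (chr11:69098699-69098948, plus strand, GRCm38.p6, from RefSeq) are shown because clock activators act through the E-box letters CACGTG, in capitals here and searched on both strands:
Per1: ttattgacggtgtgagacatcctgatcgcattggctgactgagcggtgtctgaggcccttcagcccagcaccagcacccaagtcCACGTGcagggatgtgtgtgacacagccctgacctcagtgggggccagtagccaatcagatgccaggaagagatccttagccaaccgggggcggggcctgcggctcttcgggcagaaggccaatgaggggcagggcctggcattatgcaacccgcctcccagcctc
These letters occur in 6.02% of the 32851 windows, and the windows of Clock and Rora that were searched hold 0 matches. No window of Per2 is described here.

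Among the strong decreases, the lists of blood-forming and white cell genes held more than the other lists counted. Of 77 genes called lower by more than 2-fold, 36 belonged to lists of neutrophil, myeloid, erythroid, megakaryocyte or B-lineage genes, 10 to a list of cell division genes, 15 to muscle lists and 16 to none of them. All of these lists but those of neutrophil granules, erythroid genes and skeletal muscle were drawn up after the values were seen. The excepted lists were chosen with earlier results of these data known. The tally therefore depends on how the lists were made and is a description only. Of 19 neutrophil granule genes 14 fell, 0 rose, and all 19 lay below 0, with a median log2 difference of -1.79. Mpo, the myeloperoxidase of neutrophil precursors, stood at 1.48, 2.58, 1.57, 2.07 and 2.24 CPM in M337V and 15.1, 3.99 and 7.82 CPM in NTg (log2 -2.17 ± 0.38, SE, adjusted p = 0.0199). Ngp, a granule protein of immature neutrophils, stood at 13.1, 16.9, 10.3, 16.2 and 29.7 CPM against 113, 34.5 and 56.3 CPM (-1.98 ± 0.40, adjusted p = 0.0285). NTg 4 was several-fold above NTg 5 for both, and for Ngp M337V 9 came close to NTg 5. Camp, Cd177, Ly6g and S100a8, all neutrophil genes, fell by 2.01, 2.06, 2.01 and 1.81 on the log2 scale (adjusted p = 0.0328, 0.0237, 0.0319 and 0.0384).

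Summed over the neutrophil list, the level was 72.6 to 168 CPM in M337V and 619, 191 and 294 CPM in NTg. The erythroid lists differed. The list of 11 erythroid genes had 7 members above 0, a median of 0.27, 0 higher calls and 1 lower call (Slc4a1). Its summed level was 3700 CPM in M337V 9 and 722 to 1038 CPM in M337V 1, 2, 3 and 7. In NTg it was 823 to 1422 CPM. Of 25 erythroid precursor genes, listed after the values were seen, 10 fell (median -1.55), among them Ermap, a red cell adhesion protein (-1.92 ± 0.32, adjusted p = 0.0189), and Slc4a1, the red cell anion exchanger band 3 (-1.68 ± 0.43, adjusted p = 0.0495). Hbb-bs, an adult beta globin, stood at 341 to 2176 CPM in M337V, highest in M337V 9, and 400 to 709 CPM in NTg (0.59 ± 0.59, adjusted p = 0.579; -0.26 without M337V 9). Of 41 cell division genes 18 fell and 0 rose, at a median of -0.78, and their summed level was 163 to 190 CPM in M337V and 310, 220 and 255 CPM in NTg. Jchain, the joining chain of secreted antibodies, differed in that the NTg libraries agreed: it stood at 1.18, 1.72, 1.57, 1.76 and 1.25 CPM in M337V and 3.67, 4.58 and 3.91 CPM in NTg (-1.44 ± 0.18, adjusted p = 0.0118). It passed in 7 of the 8 leave-out fits and in the trend-removed fit. The neutrophil count of 14 became 4 in the trend-removed fit. It was 9 with M337V 7 omitted, 3 with M337V 1, 1 with M337V 3 or NTg 4, and 0 with M337V 2 or NTg 6. The cell division count of 18 became 4 in the trend-removed fit, 11 with M337V 7 or NTg 5 omitted, 9 with M337V 9, 6 with M337V 1, 1 with M337V 3, and 0 with M337V 2, NTg 4 or NTg 6. The erythroid precursor count of 10 became 2 in the trend-removed fit and with M337V 1 or 3 omitted, 1 with NTg 4, and 0 with M337V 2 or NTg 6.

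Skeletal muscle genes were lower too. All 25 members lay below 0, with a median log2 difference of -2.44, and 3 fell. Myh2, a fast muscle myosin, stood at 2.92, 2.79, 3.81, 7.91 and 0.572 CPM in M337V and 9.94, 30.1 and 49.4 CPM in NTg (log2 -3.05 ± 0.76, SE, adjusted p = 0.0464). Mb, the oxygen store of muscle, stood at 4.09, 4.40, 5.64, 7.70 and 0.26 CPM against 12.8, 25.8 and 46.0 CPM (-2.67 ± 0.67, adjusted p = 0.0468). NTg 6 and 5 were high and NTg 4 stood close to M337V 7, whereas for Mpo and Ngp NTg 4 was the highest. Of 25 further genes of the sarcomere and muscle fibre, listed after the values were seen, 12 fell, including Myot, a Z-disc protein (-2.92 ± 0.72, adjusted p = 0.0446). Summed muscle levels were 155 to 427 CPM in M337V and 367, 1310 and 1948 CPM in NTg, so the sums overlapped through NTg 4. Acta2 and Des, listed with the mural cells of vessels, fell by 0.86 and 2.22 on the log2 scale (adjusted p = 0.0328 and 0.0421); Des is also a muscle filament, and each passed in at most 2 of the 8 leave-out fits. Skeletal muscle is not part of the cord, and the source of these messages was not tested. The 3 muscle list calls became 23 with the 8 compared libraries alone, 23 with WT 10 omitted and 22 with WT 8 omitted, and the 12 sarcomere calls 18, 20 and 20. In the trend-removed fit 0 of the 25 muscle list genes passed; 5 passed with NTg 4 omitted, 1 with NTg 5, and 0 with NTg 6 or any 1 of M337V 1, 2, 3 and 9. Sarcomere calls numbered 2 in the trend-removed fit, 6 with M337V 7 omitted, 4 with M337V 1, 3 with M337V 9, 1 with NTg 5, and 0 with M337V 2, M337V 3 or NTg 6.

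**Figure D4:**
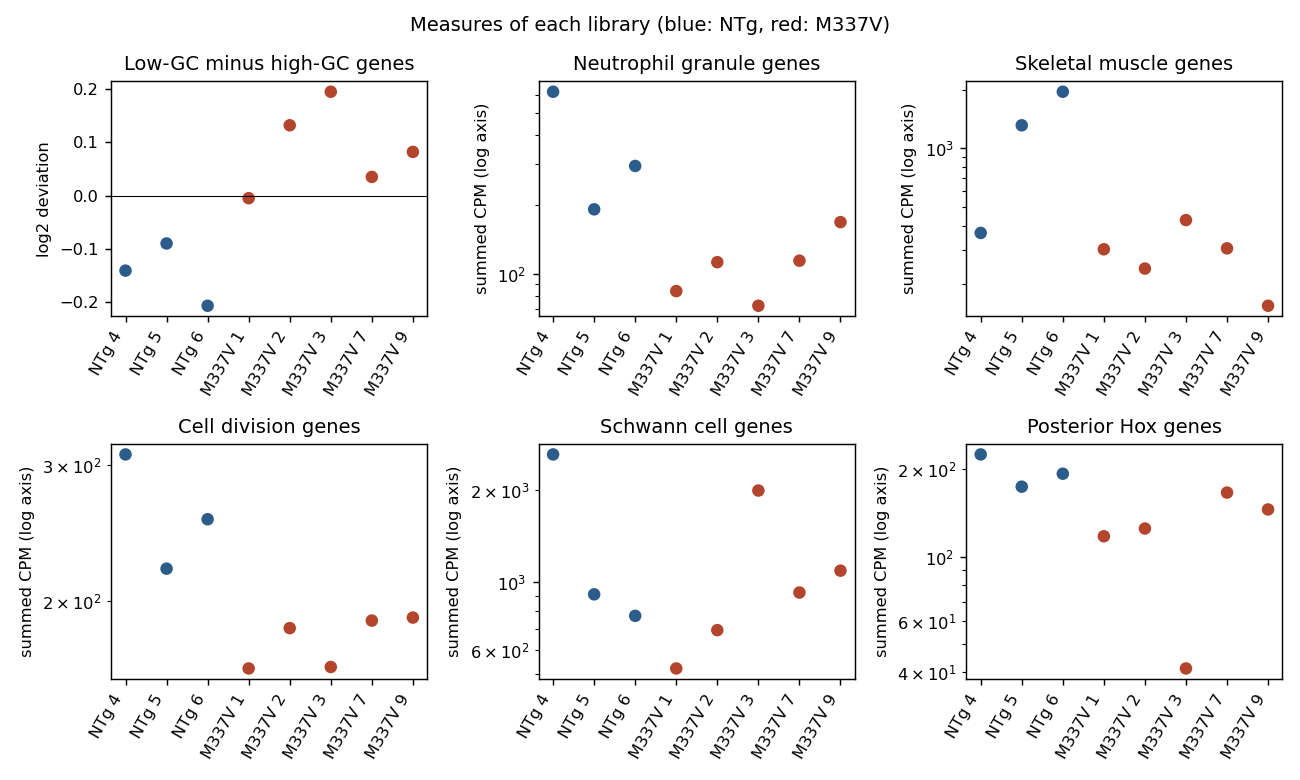
Each panel gives 1 measure in the 3 NTg (blue) and 5 M337V (red) libraries: the deviation of low-GC genes minus high-GC genes on a linear axis, and the summed CPM of 5 gene lists on log axes. The GC measure, neutrophil, cell division and posterior Hox levels do not overlap between groups, muscle is high in NTg 5 and 6 only, and Schwann cell genes are high in NTg 4 and M337V 3.

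Neighbouring tissues gave lists in which 0 genes passed. All 26 meningeal and matrix genes lay below 0 (median -0.52), but the median was -0.08 without NTg 4, where Col1a1, a fibrillar collagen, stood at 145 CPM against 12.8 to 56.8 CPM in the other 7 libraries. The 18 Schwann cell genes had a median of -0.41, which became 0.38 without NTg 4. Of 11 posterior Hox genes 0 passed at a median of -0.68, and their summed level was 41.2 to 166 CPM in M337V, lowest in M337V 3, and 174 to 224 CPM in NTg. Hoxc8, a thoracic-level gene, went the other way, at 56.0 to 155 CPM in M337V and 35.5 to 49.7 CPM in NTg (1.13 ± 0.38, adjusted p = 0.1). The list of 17 middle Hox genes had a median of only 0.11, with 12 above 0, 5 below and 0 called. The part of cord level and adjoining tissue in the differences above was not tested.

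The gene with the smallest p was Tpm3-rs7, a related sequence of Tpm3 on chromosome 14. It stood at 0.205, 0.161, 0.47, 0.465 and 0.26 CPM in M337V and 23.1, 10.0 and 20.5 CPM in NTg (log2 -5.81 ± 0.32, SE, adjusted p = 9.59e-06). Tpm3, a cytoplasmic tropomyosin on chromosome 3, rose from 86.2, 99.0 and 82.6 CPM in NTg to 117, 117, 110, 115 and 118 CPM in M337V (0.37 ± 0.06, adjusted p = 0.0192). The library labelled NTg 4, which holds the human gene, was the highest of all 8 for Tpm3-rs7. Both WT libraries, which were not compared, held 0.314 and 0.341 CPM of it. The 2 genes share sequence: 49.8% of the 100-base words of Tpm3-rs7 transcripts also occur in Tpm3 transcripts. Of the words of Tpm3 transcripts, 15.8% occur in those of Tpm3-rs7. Reads could be split between them and both values are uncertain, but how reads were assigned was not tested. Their sum was 117, 117, 110, 116 and 118 CPM in M337V and 109, 109 and 103 CPM in NTg, a far smaller difference than that of Tpm3-rs7. Tpm3-rs7 passed in all 8 leave-out fits and in the trend-removed fit.

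Rps3a1, a protein of the small ribosomal subunit, was the 1 gene called of 86 cytosolic ribosomal protein genes. It stood at 260, 258, 270, 223 and 247 CPM in M337V and 148, 201 and 147 CPM in NTg (log2 0.61 ± 0.12, SE, adjusted p = 0.026), and the groups did not overlap. Of its 100-base words 45.3% occur in transcripts of other genes, and its call was lost without NTg 4 (adjusted p = 0.0701). Among the genes that held through the most leave-out fits were also Tmeff1, a transmembrane protein with follistatin domains (0.51 ± 0.06, adjusted p = 0.0118), and Dpy19l1, a C-mannosyltransferase (0.33 ± 0.04, adjusted p = 0.0118). Both passed in 7 of the 8 and in the trend-removed fit, and for both every M337V library lay above every NTg library.

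Several lists held 0 calls in either direction. These were 37 proteasome subunits (median 0.05), 77 respiratory chain subunits (0.03), 24 potassium channels (-0.03), 10 sodium channels (-0.06), 16 dorsal horn peptides (-0.00), 26 interferon-induced genes (-0.12), 26 endothelial and barrier genes (-0.16), 18 ependymal cilia genes (0.11) and 12 neighbours of the Rosa26 locus (-0.03). Of 39 genes for nuclear pores and transport 1 fell, and of 20 for antigen presentation 1 fell. Of 31 autophagy genes, 23 heat shock chaperones and 26 genes of the integrated stress and unfolded protein response, 1 rose and 1 fell in each. At 2.67% higher and 1.61% lower over all genes tested, few calls would fall in lists of these sizes, so nothing is read from these counts.

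**Figure D5:**
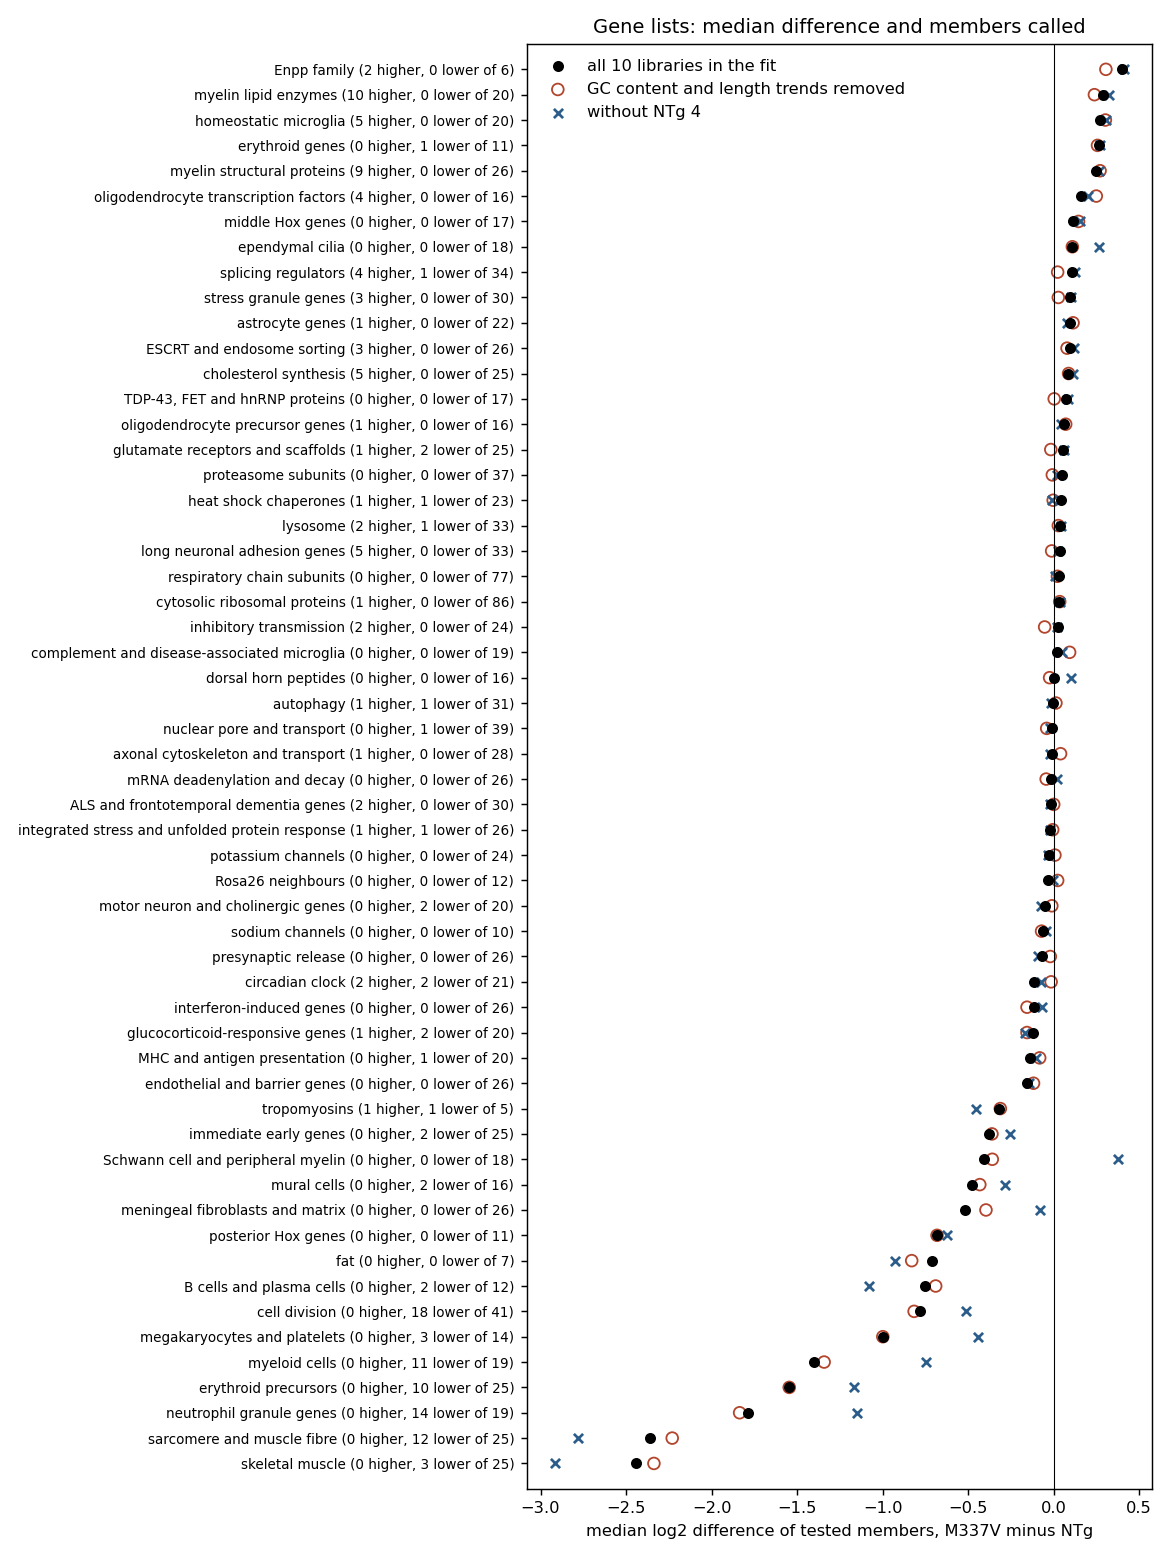
Median log2 difference of each gene list between M337V and NTg (horizontal axis) in the fit of all 10 libraries (black), in the trend-removed fit (open red circles) and without NTg 4 (blue crosses), with the numbers called beside each name. The 2 myelin lists, the homeostatic microglia list and the Enpp list have medians of 0.25 to 0.40 and stay positive in both alternatives. The muscle lists and the neutrophil, erythroid precursor and myeloid lists lie lowest. Of these, the sarcomere, erythroid precursor and myeloid lists were drawn up after the values were seen. The list of erythroid genes has a median of 0.27, and the Schwann cell median changes sign without NTg 4.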

How the data were processed

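PolyA RNA of lumbar cord was sequenced as stranded read pairs, per the labels, and the authors deposited raw read counts, 1 whole number for each gene in each library. Tools that the submitters' processing notes list include STAR 2.4.2a and Trimmomatic 0.32 as well as featureCounts, with Subread at 1.4.6; their genome build, annotation and strand setting were not given in the sources used here. Gene names came from GENCODE M21 (GRCm38) by Ensembl identifier. The lowest chi-square per degree of freedom between 2 libraries was 4.874, so none was a copy.

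Groups follow the genotype labels, with the number in each title as the animal. Separate animals are implied by those numbers and not otherwise stated, so p-values measure the spread between these samples. Genes were filtered with filterByExpr (minimum count 10, minimum total 15), scaled by TMM and fitted with edgeR 4.0.16 (quasi-likelihood, R 4.3.3) over all 10 libraries with a mean per group. Every adjusted p is Benjamini-Hochberg over all genes tested, with a threshold of 0.05. Each SE was derived from the test, as the absolute log2 difference divided by the square root of the quasi-likelihood F. The script was tested on simulated counts with 200 genes changed. Those counts held neither the GC tilt nor the tissue differences of single libraries, so the test does not bear on either.

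Alternatives were RLE factors, library size alone, a filter that asks for a mean of 1 CPM in each group, omission of the filter, the 8 libraries alone, limma-voom (limma 3.58.1), DESeq2 1.42.0, leaving out libraries, and removal of each library's loess trend (span 0.3) over GC content and transcript length. The last with NTg 4 left out, and the lists of marrow, dividing and muscle fibre genes, were added after seeing the data. Log2 deviations use CPM plus 0.5. The comparison and the lists were chosen with earlier results of these data known. Genes named were human TARDBP and Tardbp, up to 12 largest called changes each way at 5 CPM or more without overlap, the 8 most abundant called genes each way, up to 4 called members per list and direction (3 with the smallest p where none was called), up to 10 most robust to leaving out libraries, the 5 whose difference moved most without NTg 4, and markers; a few others it picked are not reported here. RefSeq promoter windows are of GRCm38.p6, and for a gene with several starts the one nearest its GENCODE start was taken.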

Additional observations from a re-analysis of the deposited data

Results flagged for a closer look

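Among the genes named with values, 7 of 89 had 1 M337V library set apart from the other 4, the gap to the nearest being more than 0.71 of the group's range; about 1 group in 20 meets this by chance. M337V 2 was highest for S100b (1094 CPM, next 959), Cyp51 (234.9 CPM, next 203) and Snx5 (157.6 CPM, next 144), and M337V 3 was highest for Nr3c1 (150.3 CPM, next 141). M337V 9 was lowest for Zeb2 (207.3 CPM, next 237) and highest for Cd177 (2.963 CPM, next 1.64). It was also highest for Hbb-bs (2176 CPM, next 541), the widest gap of the 7. By the same measure the total of M337V 2, 18724888 counts, lay apart from the other 4 M337V libraries, the next being 19343261.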

How the results depend on the processing

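Counts of calls depended on the method. All, higher and lower calls were 1488, 935 and 553 with DESeq2, 1315, 757 and 558 with limma-voom, 1057, 659 and 398 with the 8 libraries alone, and 170, 130 and 40 in the trend-removed fit. With NTg 4 also left out of the last they were 13, 8 and 5. Scaled by library size alone, 251 were higher and 393 lower. The 3 counts were 3, 1 and 2 without M337V 1 to 3 together, and 1146, 609 and 537 without M337V 7 and 9 together. Leaving out 1 library at a time gave from 2 (1 higher, 1 lower, without NTg 6) to 1016 (577 higher, 439 lower, without WT 10). RLE factors, no filter, the 1 CPM filter, and NTg 4 with WT 8 left out kept all 3 counts within 1.5 times. Of the 651 genes, 2 had the other sign in the trend-removed fit, 5 did with NTg 4 also left out, and 0 under the other alternatives. The cause of these shifts was not tested.

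Among the genes named, Tardbp was -0.039 in the trend-removed fit, -0.074 with NTg 4 also left out and -0.014 without M337V 1 to 3; in that second fit Gabrg1 was -0.028. Hbb-bs was -0.26 without M337V 9, -0.23 without M337V 7 and 9, and 0.90 without NTg 4. Genes whose groups do not overlap numbered 2753, 2854 with library size alone and 4122 without NTg 4. No paired analysis was possible because the groups share no animal number. With 3 NTg libraries, of which 1 holds the human gene, changes under 1.5-fold rest on narrow spreads.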
